A study of Mus musculus with 9 samples.

Results

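The miR-181 family was measured in small RNA libraries of B16F1 cells, an adherent mouse melanoma line derived from the skin of a C57BL/6J mouse. Its members here are mmu-mir-181a, mmu-mir-181b, mmu-mir-181c and mmu-mir-181d, and they were taken by name from the table of raw counts, whichever value they had. The table holds 137 entries of the family among 6414 in all. Of these, 127 are sequence tags with counts, which are stretches of reads, 20 nt or shorter, listed under a hairpin, and the other 10 are rows with a mature name and no tag, all at 0 in all 9 libraries. The tags were summed by member and arm, with a start number under 35 in the hairpin taken as the 5p arm and any other as the 3p arm. The family took 42107 of 2381030 counts, or 1.77%, and between 1.14% and 2.60% of each library.

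Control cells were grown for 72 h without addition (n = 3). The L-Tyr group received L-tyrosine, the amino acid from which melanin is made, at 5 mM for 72 h (n = 3). The 5-Brd-2′-dU group received 5-bromo-2′-deoxyuridine, a thymidine analogue that enters DNA, at 2.5 µg/mL for 72 h (n = 3). The labels number the 3 cultures of each group, and all are of 1 cell line. The study speaks of 3 independent replicates for its analyses in general. The doses of the compounds are in different units, so that the comparison of the 2 exposures is not one at matched dose.

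MicroRNAs are cut from a hairpin precursor that has a 5p and a 3p arm, and usually 1 arm, called the guide, stays in the Argonaute protein and directs it to messenger RNAs that pair with the seed, bases 2 to 8 of the miRNA. The miR-181 family is best known from lymphocytes, where miR-181a sets the sensitivity of T cell receptor signalling, and it is also found in muscle, brain and many tumour lines. In mouse the family is encoded by hairpins in clusters, and miR-181a and miR-181b are each made from a pair of hairpin copies, named with the suffix 1 and 2.

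The mature sequences decide what can be told apart in these data, and they are shown here as RefSeq gives them in its table for GRCm38.p6, with the seed in capitals.
miR-181a-5p: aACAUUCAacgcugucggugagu
miR-181b-5p: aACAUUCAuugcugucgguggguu
miR-181c-5p: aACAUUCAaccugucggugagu
miR-181d-5p: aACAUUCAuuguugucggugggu
miR-181a-1-3p: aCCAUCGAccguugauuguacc
miR-181a-2-3p: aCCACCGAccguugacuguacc
miR-181b-1-3p: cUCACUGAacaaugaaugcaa
miR-181b-2-3p: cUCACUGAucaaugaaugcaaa
miR-181c-3p: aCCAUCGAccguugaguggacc
miR-181d-3p: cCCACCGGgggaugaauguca
All 4 of the 5p arms share the seed ACAUUCA. Counted from 1 at the 5′ end, miR-181b-5p differs from miR-181a-5p by A9U, C10U and A21G, all outside the seed, and miR-181d-5p differs from miR-181b-5p over the bases they share by C12U alone. The 5p arm is the same sequence in both copies of a member, so its counts cannot be assigned to a copy. The 3p arms of the copies differ. That of mir-181a-2 differs from that of mir-181a-1 by U5C and U16C, of which the first is in the seed, and that of mir-181b-2 differs from that of mir-181b-1 by A9U. The 3p arms therefore have 4 seeds, CCAUCGA in miR-181a-1-3p and miR-181c-3p, CCACCGA in miR-181a-2-3p, UCACUGA in both miR-181b copies and CCACCGG in miR-181d-3p.

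The hairpins of miR-181a are shown because the results below turn on the 3p arm of the second copy, with the mature arms in capitals.
mir-181a-1: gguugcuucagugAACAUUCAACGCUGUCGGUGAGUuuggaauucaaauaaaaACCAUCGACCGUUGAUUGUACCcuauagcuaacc
mir-181a-2: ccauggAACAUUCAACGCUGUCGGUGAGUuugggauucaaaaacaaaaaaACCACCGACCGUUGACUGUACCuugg
The copies lie in separate clusters of the genome. In NCBIM37, the build the study calls mm9, mir-181a-1 is at chr1:139863032-139863118 on the plus strand, and mir-181b-1 follows 97 bases later on the same strand at chr1:139863216-139863295, with no annotated host gene at either. The hairpin of mir-181a-2 is at chr2:38708255-38708330 on the plus strand, with mir-181b-2 at chr2:38709350-38709438, 1019 bases further on, and both lie within an intron of Nr6a1, an orphan nuclear receptor gene annotated on the opposite strand. The third cluster holds mir-181d at chr8:86702615-86702686 and mir-181c at chr8:86702762-86702867 on the minus strand, 75 bases apart and outside any annotated host gene.

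The libraries held between 144452 and 424122 counts, and the limit that a count of 0 allows, 3 counts, was worth 6.53 to 20.1 CPM. CPM here is the count relative to the TMM-scaled library total, where TMM is edgeR's factor that scales a library by the bulk of its sums. The melanocytic marker miR-211 was present in every library, between 6700 and 26740 CPM. Replicate 3 of 5-Brd-2′-dU stood apart. Its 5 stromal and endothelial markers, led by miR-143, summed to 277668 CPM, against 1772 to 7427 CPM in control and L-Tyr libraries, its 4 leukocyte markers to 1513 CPM, with miR-150 and miR-155 at 0, and its 2 erythroid markers to 7133 CPM. Replicate 2 of L-Tyr held such markers at lower levels. Its 2 erythroid markers summed to 288 CPM, against at most 18.4 CPM in control cells, and the hepatic marker miR-122 was at 76.8 CPM, against 0 in control cells. The part of these markers in the miR-181 results was not tested. The fold changes of arms and copies and the differences in share for 5-Brd-2′-dU are given with and without its replicate 3, while single tags are given only with it. In bulk libraries of this kind, fewer cells of a type and less RNA per cell cannot be told apart.

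miR-181a-5p was the main product of the family. Its mean of 3816 counts per library placed it 18th of the 698 sums with counts, and miR-181a-3p followed at rank 71 with 490 counts, miR-181b-5p at rank 81 with 342 and miR-181b-3p at rank 210 with 24.3. A read counts the same whatever the length of its hairpin, so these levels need no division by length. In control cells miR-181a-5p was at 14514 ± 2286 CPM (SD, n = 3), miR-181a-3p at 1839 ± 84.5, miR-181b-5p at 1709 ± 244 and miR-181b-3p at 230 ± 106. The first and the last of these stood clear of their neighbours, whereas miR-181a-3p and miR-181b-5p, at 1772 to 1934 and 1445 to 1927 CPM, overlapped.

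miR-181a-5p, the guide arm of miR-181a, was at 15752, 15913 and 11876 CPM in control cells, at 20348, 17581 and 14158 CPM after L-Tyr and at 10639, 12799 and 12462 CPM after 5-Brd-2′-dU. Each exposure overlapped control cells, while all 3 libraries of 5-Brd-2′-dU lay below all 3 of L-Tyr. Against control cells, its log2 fold change with L-Tyr was 0.15 ± 0.212 (SE), with an adjusted p of 0.896 in edgeR's quasi-likelihood test, and −0.15 ± 0.233 for 5-Brd-2′-dU, with an adjusted p of 0.830 by the same test. Between the exposures it was −0.45 ± 0.221, with an adjusted p of 0.478 in edgeR's test, and an exact two-sided permutation test of the CPM gave p = 0.1, the smallest that 3 libraries against 3 can give. Without replicate 3 of 5-Brd-2′-dU the last difference was −0.56 and the one from control cells −0.22.

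**Figure D1:**
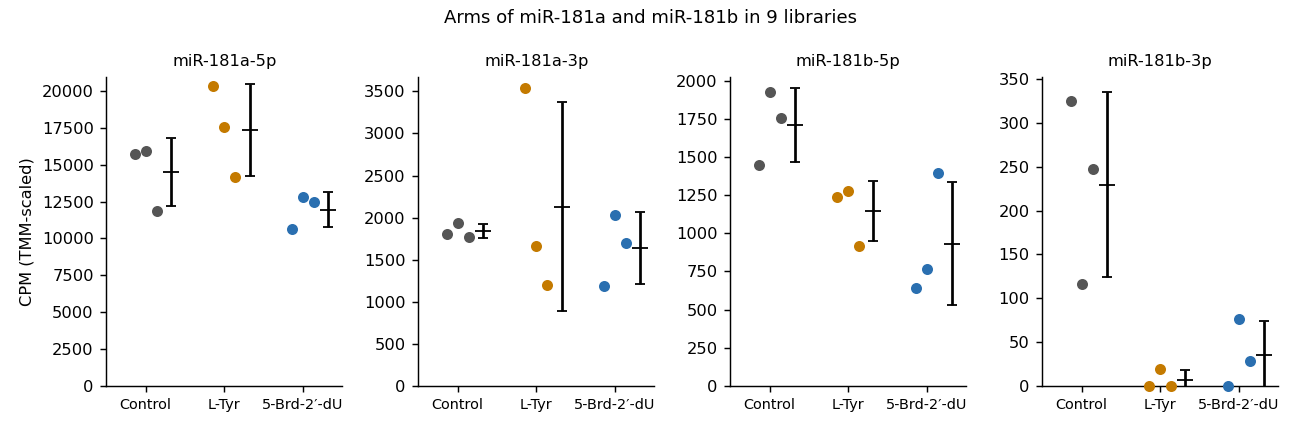
CPM (linear axis from 0) of the 4 abundant arms in each of the 9 libraries, by group. Points are libraries, and the bars beside them are the mean ± SD of 3, with the lower end cut at 0. The miR-181b-5p panel shows control cells at 1445 to 1927 CPM above every exposed library, and the miR-181b-3p panel shows 3 exposed libraries at 0.

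miR-181b-5p, which carries the same seed, was at 1445, 1927 and 1754 CPM in control cells. It was at 1237, 1279 and 919 CPM after L-Tyr and at 638, 766 and 1394 CPM after 5-Brd-2′-dU. Every exposed library was lower than the lowest of the controls, to which replicate 3 of 5-Brd-2′-dU came nearest. The exact two-sided permutation test gave p = 0.1 for each exposure, the smallest possible, and the log2 fold changes were −0.68 ± 0.328 for L-Tyr (adjusted p = 0.360 in edgeR's test) and −0.75 ± 0.391 for 5-Brd-2′-dU (adjusted p = 0.363 in edgeR's test). Neither passed the threshold of 0.05. Over all sums tested, the median log2 fold change with L-Tyr was −0.20, and with 5-Brd-2′-dU it was 0.02. Without replicate 3 of 5-Brd-2′-dU the fold change was −1.19 ± 0.341, with an adjusted p of 0.136 in edgeR's test. Between the exposures the difference was −0.22 ± 0.454 (adjusted p = 0.985 in edgeR's test), and without that library −0.69.

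The share of miR-181b within the 5p arms, a measure that does not depend on the scaling of the libraries, had its highest mean in control cells. It is built on the same miR-181b-5p counts as the levels above, so it is not separate support. No background over other families was computed for this share. Of the 5p counts of the family, miR-181b took 8.38%, 10.8% and 12.9% in control cells, 5.72%, 6.78% and 6.09% after L-Tyr and 5.66%, 5.64% and 10.1% after 5-Brd-2′-dU. The L-Tyr libraries lay below every control library, at 6.20% ± 0.539 (SD, n = 3) against 10.7% ± 2.24 (exact permutation p = 0.1, two-sided, the smallest possible). After 5-Brd-2′-dU the share was 7.12% ± 2.55 and overlapped control cells through replicate 3 alone (exact permutation p = 0.2, two-sided). Without that library the difference from control cells went from −3.56 to −5.04 percentage points. The 95% Wilson intervals of single libraries were narrow, from 4.97% to 6.58% in replicate 1 of L-Tyr for example, but they cover counting error only, since PCR copies of a molecule could not be removed.

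miR-181b-3p, the less abundant arm, had 65, 52 and 54 counts in control cells, 0, 5 and 0 after L-Tyr and 0, 35 and 8 after 5-Brd-2′-dU. That is 325, 116 and 248 CPM in control cells, 0, 19.2 and 0 after L-Tyr and 0, 76.2 and 28.7 after 5-Brd-2′-dU. No exposed library reached the lowest control library, and a count of 0 allowed up to 20.1 CPM in replicate 1 and 15.8 CPM in replicate 3 of L-Tyr and 17.6 CPM in replicate 1 of 5-Brd-2′-dU. The fitted log2 fold change was −5.00 ± 1.58 for L-Tyr, with an adjusted p of 0.179 in edgeR's test, and −2.44 ± 1.29 for 5-Brd-2′-dU, with an adjusted p of 0.364 in edgeR's test. DESeq2's Wald test gave an adjusted p of 0.0130 for L-Tyr, below the threshold, at a log2 fold change of −5.05, and of 0.294 for 5-Brd-2′-dU. The L-Tyr value rests on 5 counts in 1 exposed library and on a sum that passed the low-count filter through control cells, so that its size depends on the prior count of the fit. Without replicate 3 of 5-Brd-2′-dU the second value was −2.39.

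All of the miR-181b-3p counts were listed under mir-181b-1, and mir-181b-2 had no 3p entry. They lay in 3 tags, and the most abundant, with 130 of 219 counts, began at the annotated 5′ end.
miR-181b-1-3p tag: cTCACTGAacaatgaatgca
Set against the 3p arm of its neighbour mir-181a-1, which is processed from the same cluster on chromosome 1, mir-181b-1 took 15.9%, 5.83% and 13.3% of the summed 3p counts in control cells, 0%, 1.27% and 0% after L-Tyr and 0%, 4.15% and 2.05% after 5-Brd-2′-dU. Every exposed library lay below every control library (exact permutation p = 0.1 for each exposure, two-sided, the smallest possible), and without replicate 3 of 5-Brd-2′-dU the difference of −9.60 percentage points for that exposure was −9.59. This share and the next are built on the same miR-181b-3p counts as the levels above, so they are not separate support. No background over other neighbouring hairpins was computed for this share. Within miR-181b itself, the 3p arm took 18.4%, 5.68% and 12.4% of the counts in control cells, at most 1.48% after L-Tyr, and 0%, 9.04% and 2.02% after 5-Brd-2′-dU, so that L-Tyr did not overlap control cells and 5-Brd-2′-dU did. For the latter the difference of −8.45 percentage points was −7.62 without replicate 3. Among the 61 names with a mean count of at least 10 in each arm, the 3p share did not overlap between groups for 13.1% with L-Tyr, 19.7% with 5-Brd-2′-dU and 13.1% between the exposures. For miR-181a, whose 3p share was 11.4% ± 1.42 (SD, n = 3) in control cells, 10.4% ± 3.84 after L-Tyr and 11.9% ± 1.85 after 5-Brd-2′-dU, the groups overlapped in all 3 comparisons, and the 5-Brd-2′-dU difference of 0.513 points was 0.479 without replicate 3.

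No arm of the family was called at an adjusted p under 0.05 by edgeR's test in any comparison. For L-Tyr, 4 of the 8 arms passed the low-count filter and 0 were called, against 6 of 233 sums or 2.58% over the whole table. For 5-Brd-2′-dU, 0 of 4 were called against 12 of 253 or 4.74%, and between the exposures 0 of 3 against 6 of 222 or 2.70%. At an unadjusted p under 0.05 there was 1 arm, miR-181b-3p with L-Tyr, where 15% of all sums had such a p, and 0 in the other comparisons, where 20.6% and 13.1% had one. DESeq2's Wald test called 1 arm for L-Tyr, again miR-181b-3p, and 0 in the others, and over the whole table it called 5.92% of sums for L-Tyr, 5.41% for 5-Brd-2′-dU and 2.22% between the exposures. The median log2 fold change of the tested arms was −0.29 for L-Tyr, −0.45 for 5-Brd-2′-dU and −0.29 between the exposures, against −0.20, 0.02 and 0.12 over all sums, given as a description because miR-181b-3p passed the filter through control cells. Groups that did not overlap were also common over the whole table. Among arms with a mean count of at least 10 this held for 17.6% with L-Tyr, 24.3% with 5-Brd-2′-dU and 17.2% between the exposures, beside 2, 2 and 1 of the 4 miR-181 arms that reached that count.

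**Figure D2:**
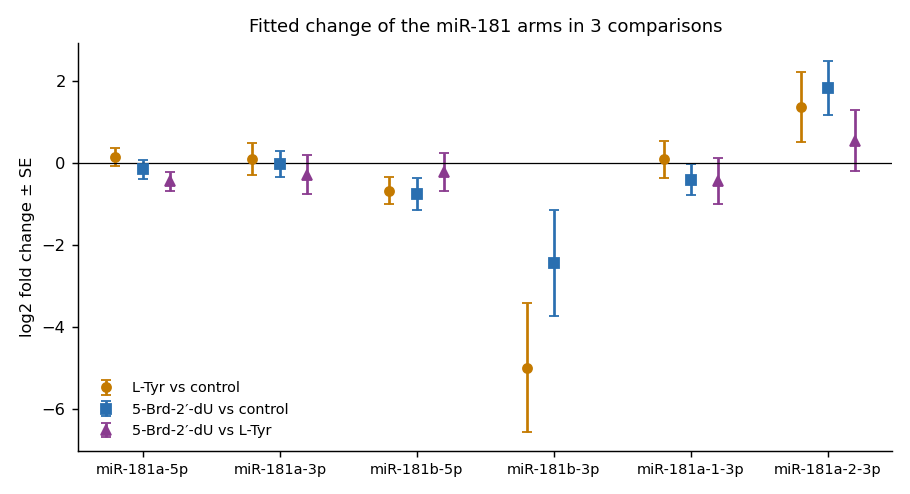
Log2 fold change ± SE (edgeR, linear axis) of the 4 abundant arms and of the 3p arms of the miR-181a copies in 3 comparisons, 1 marker per comparison, with the line at 0 for no difference. The values of miR-181b-3p lie lowest, at −5.00 and −2.44, and the 3 of miR-181a-2-3p are all above 0, at 1.36, 1.83 and 0.55.

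The 3p arm of miR-181a can be divided by hairpin copy, and the second copy, the minor one, had its lowest levels in control cells. miR-181a-2-3p had 17, 27 and 34 counts in control cells, 32, 44 and 71 after L-Tyr and 79, 126 and 88 after 5-Brd-2′-dU. Scaled to the libraries, it was at 85.0, 60.2 and 156 CPM in control cells, 214, 169 and 375 after L-Tyr and 463, 274 and 316 after 5-Brd-2′-dU. All 6 exposed libraries lay above all 3 control libraries, and the exposures overlapped each other. The log2 fold change was 1.36 ± 0.854 for L-Tyr (adjusted p = 0.551 in edgeR's test) and 1.83 ± 0.655 for 5-Brd-2′-dU, with an adjusted p of 0.188 in edgeR's test, and the exact two-sided permutation test gave p = 0.1 for each, the smallest possible. Without replicate 3 of 5-Brd-2′-dU the latter was 1.97 ± 0.726. Between the exposures the difference was 0.55 ± 0.737 (adjusted p = 0.921 in edgeR's test), and without that library 0.57. All 71 counts in replicate 3 of L-Tyr lay in 1 tag. In replicate 1 of 5-Brd-2′-dU, 32 of the 79 lay in an inexact tag at 0 in every other library. With only the tags found exactly in the RefSeq hairpin, counts were 14, 27 and 27 in control cells and 31, 34 and 71 after L-Tyr. After 5-Brd-2′-dU they were 47, 106 and 61, in a check chosen after the data were seen.

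miR-181a-1-3p, from the other copy, was at 1725, 1873 and 1616 CPM in control cells, 3323, 1495 and 818 after L-Tyr and 720, 1758 and 1376 after 5-Brd-2′-dU. The exposed libraries spread on both sides of control cells for L-Tyr, and overlapped them for 5-Brd-2′-dU. Its log2 fold changes were 0.09 ± 0.449 for L-Tyr, which turned to −0.63 without replicate 1 of L-Tyr, and −0.41 ± 0.377 for 5-Brd-2′-dU (adjusted p = 0.967 and 0.605 in edgeR's test). The latter was −0.38 without replicate 3 of 5-Brd-2′-dU.

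**Figure D3:**
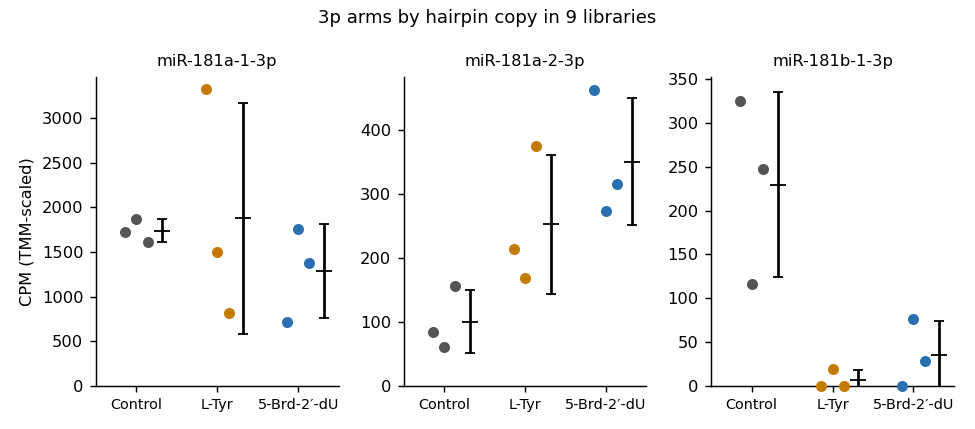
CPM (linear axis from 0, a different range in each panel) of the 3p arms that can be assigned to a hairpin copy, in 9 libraries. Points are libraries, and bars are the mean ± SD of 3, cut at 0. miR-181a-2-3p lies at 60.2 to 156 CPM in control cells and at 169 to 463 CPM in the exposed libraries, and miR-181b-1-3p is at 76.2 CPM or less in every exposed library.

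As a share of all miR-181a 3p counts, the second copy took 4.70%, 3.11% and 8.81% in control cells, 6.05%, 10.2% and 31.4% after L-Tyr and 39.1%, 13.5% and 18.7% after 5-Brd-2′-dU. The 5-Brd-2′-dU libraries all lay above control cells, at 23.8% ± 13.5 (SD, n = 3) against 5.54% ± 2.94 (exact permutation p = 0.1, two-sided, the smallest possible), and L-Tyr overlapped them at 15.9% ± 13.6 (exact permutation p = 0.2, two-sided). Without replicate 3 of 5-Brd-2′-dU the difference of 18.2 percentage points was 20.8, and without replicate 1, the highest, it was 10.5. With only the tags found exactly in the RefSeq hairpin, a choice made after the data were seen, it was 13.4 points. The 5p arm, which is the same in both copies, was listed almost evenly under them in every group, with 47.5% ± 0.299 (SD, n = 3) under mir-181a-2 in control cells, 48.9% ± 1.91 after L-Tyr and 48.9% ± 0.455 after 5-Brd-2′-dU. For the 23 sequences of miR-181a 5p listed under both copies, 49.9% of the counts stood under mir-181a-1, so the division of the 5p arm by copy holds the table's way of sharing reads and not a measurement of the copies.

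**Figure D4:**
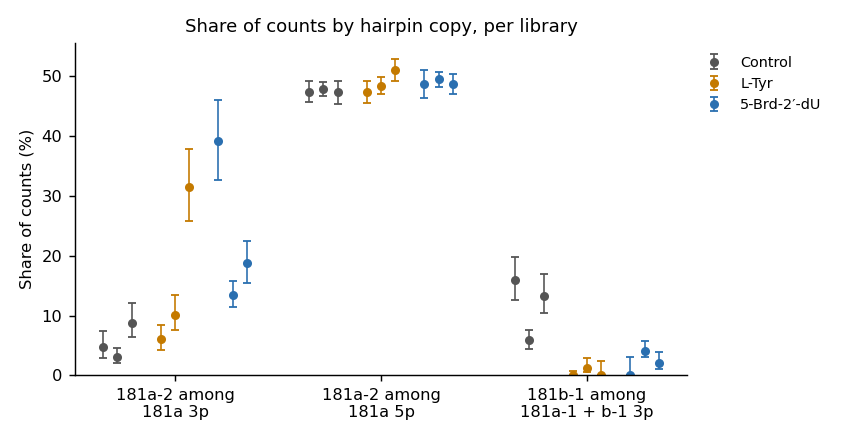
Share of counts (%, linear axis from 0) in each library with its 95% Wilson interval, for mir-181a-2 among the 3p and the 5p counts of miR-181a and for mir-181b-1 among the 3p counts of mir-181a-1 and mir-181b-1. The 3p share of mir-181a-2 runs from 3.11% to 8.81% in control cells and from 13.5% to 39.1% after 5-Brd-2′-dU, and its 5p share from 47.2% to 51.0% over all libraries.

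By hairpin and arm, 7 of the 11 miR-181 sums with counts passed the filter for L-Tyr, 7 for 5-Brd-2′-dU and 6 between the exposures, and 0 were called by edgeR's test in each. Over the whole table, 2.32%, 3.18% and 2.38% of such sums were called in these comparisons. At an unadjusted p under 0.05 there was 1 of the family for L-Tyr, miR-181b-1-3p, 1 for 5-Brd-2′-dU, miR-181a-2-3p, and 0 between the exposures, where 13.5%, 19.1% and 12.7% of all such sums had one. DESeq2's Wald test called 1, miR-181b-1-3p with L-Tyr, at an adjusted p of 0.0138, and over the whole table it called 5.54%, 8.03% and 3.91% in the 3 comparisons. The 5p sums of mir-181b-1 and mir-181b-2 had log2 fold changes of −0.61 and −0.55 for L-Tyr and −0.90 and −0.82 for 5-Brd-2′-dU, or −1.18 and −1.21 without its replicate 3, but they share most of their sequences. Groups did not overlap for 16.7% of the hairpin arms with a mean count of at least 10 with L-Tyr, for 24.5% with 5-Brd-2′-dU and for 17% between the exposures, which is the background for the separation of miR-181a-2-3p and miR-181b-1-3p.

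miR-181a-3p as a whole consists mostly of the first copy. It was at 1810, 1934 and 1772 CPM in control cells, 3537, 1664 and 1193 after L-Tyr and 1183, 2032 and 1692 after 5-Brd-2′-dU. Control cells varied least, and both exposures had libraries above and below them. The log2 fold changes were 0.10 ± 0.394 for L-Tyr, −0.03 ± 0.323 for 5-Brd-2′-dU and −0.29 ± 0.476 between the exposures (adjusted p from 0.949 to 0.998 in edgeR's test). Leaving out replicate 1 of L-Tyr turned the first to −0.39, and leaving out replicate 3 of 5-Brd-2′-dU gave −0.10 and −0.39 for the others.

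miR-181c and miR-181d were at the limit of detection. miR-181c-5p had 9 counts in replicate 1 of control cells and 11 in replicate 2 of 5-Brd-2′-dU, and miR-181c-3p had 18 counts in that same library of 5-Brd-2′-dU. miR-181d-3p had 19 counts in replicate 3 of 5-Brd-2′-dU. Under miR-181d-5p stood 5 counts in replicate 1 of L-Tyr, in a tag that is also listed under both miR-181b hairpins and occurs exactly in none of the 3. At C12U, the only difference between miR-181b-5p and miR-181d-5p over the bases they share, this tag has the C of miR-181b-5p. Its counts therefore do not show that miR-181d-5p was present. The most abundant tag of each of these arms is shown to document the listing, with the seed in capitals where the position in the hairpin could be found.
miR-181c-5p, 9 counts: cattcaacctgtcggtgag
miR-181c-3p, 18 counts: ccatcgaccgttgagtggac
miR-181d-5p, 5 counts: aacattcattgctgtcag
miR-181d-3p, 19 counts: CCACCGGgggatgaatgtca
Every other library was at 0 for these arms, no arm passed the low-count filter, and no difference between the groups was detectable at this depth.

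The tags of the 5p arms mostly began inside the annotated miRNA. The 5 most abundant tags of miR-181a-5p and the most abundant of the other arms are shown with the bases of the seed that remain in capitals, as DNA, as the table lists them.
miR-181a-5p, 6291 counts: TTCAacgctgtcggtgagt
miR-181a-5p, 5212 counts: ATTCAacgctgtcggtgagt
miR-181a-5p, 4210 counts: TCAacgctgtcggtgagt
miR-181a-5p, 3730 counts: TTCAacgctgtcggtgagtt
miR-181a-5p, 2389 counts: aACATTCAacgctgtcggtg
miR-181b-5p, 635 counts: aACATTCAttgctgtcggtg
miR-181a-1-3p, 1160 counts: CATCGAccgttgattgtacc
miR-181a-2-3p, 137 counts: CACCGAccgttgactgtacc
Only 10.9% of the counts of miR-181a-5p tags that occur exactly in the hairpin began at the annotated 5′ end, and 18.3%, 33.3% and 24.2% began 3, 4 and 5 bases after it. No such tag of miR-181a-5p began further in. For miR-181b-5p 27.3% began at the annotated end. The table lists no tag over 20 nt, and the tags of 20 nt hold 47.8% of the family's counts, whereas miR-181a-5p is 23 nt and miR-181b-5p 24 nt long.

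Late starts were found across the table. Over the 114 arms with at least 500 counts in such tags, the median share that began at the annotated end was 24.5%, with miR-181a-5p ranked 35th from the lowest, miR-181a-3p 27th and miR-181b-5p 63rd. By length of the mature miRNA the median was 40.0% for 21 nt (21 arms), 23.6% for 22 nt (70 arms) and 11.3% for 23 nt (17 arms). It was 16.6% for 19 nt (2 arms) and 15.3% for 24 nt (2 arms), the length of miR-181b-5p. The only arms of 20 nt and 25 nt were at 3.13% and 50.6%, so the share did not fall steadily with length. The 5p arms of let-7 with miR-98 had a median of 7.91% over 9 arms and those of miR-30 of 21.3% over 3. The seed that a tag shows is therefore incomplete for most counts of miR-181a-5p, and whether the bases were absent from the RNA or removed when the table was made was not tested.

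**Figure D5:**
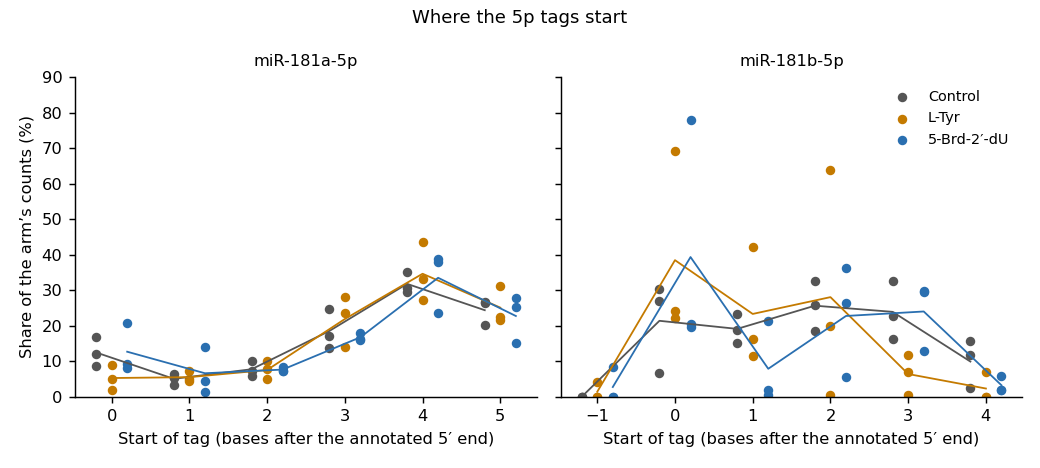
Share (%, linear axis from 0) of the counts of miR-181a-5p and miR-181b-5p by the base at which the tag starts, counted from the annotated 5′ end at 0. Points are libraries and lines join group means. Starts 3 to 5 bases in lead for miR-181a-5p in all groups, and the miR-181b-5p points scatter widely, up to 78.0% at the annotated end in replicate 1 of 5-Brd-2′-dU.

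Between groups, 8.56%, 16.7% and 12.1% of miR-181a-5p counts began at the annotated end in control cells, 2.01%, 8.87% and 4.96% after L-Tyr and 9.29%, 8.04% and 20.7% after 5-Brd-2′-dU. L-Tyr lay lowest but overlapped control cells (exact permutation p = 0.2, two-sided), and 5-Brd-2′-dU overlapped both (exact permutation p = 1 against control cells, two-sided). For 5-Brd-2′-dU the difference of 0.207 percentage points from control cells turned to −3.82 without replicate 3. For miR-181b-5p the share was 27.0%, 30.4% and 6.81% in control cells, 69.2%, 22.1% and 24.1% after L-Tyr and 78.0%, 20.5% and 19.6% after 5-Brd-2′-dU. Replicate 1 of each exposure was far above the other libraries, and the groups overlapped. For 5-Brd-2′-dU the difference of 17.9 percentage points from control cells was 27.8 without replicate 3 and turned to −1.37 without replicate 1.

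Tested entry by entry, no miR-181 tag was called by edgeR's test. The tests covered 49 tags for L-Tyr, 57 for 5-Brd-2′-dU and 45 between the exposures, where 0.0796%, 0% and 0.162% of all tags were called. No tag of miR-181b-3p passed the low-count filter for L-Tyr. The entry level therefore did not test that arm for L-Tyr, and DESeq2 was not run on single tags. At an unadjusted p under 0.05 there were 0, 1 and 1 of the family, or 0%, 1.75% and 2.22% of its tested tags, against 9.63%, 10.5% and 7.13% of all tags. The tag with the smallest p for 5-Brd-2′-dU was TCAacgctgtcggtgagtt under mir-181a-1, at 115, 260 and 99 counts in control cells and 53, 84 and 36 after exposure, with a log2 fold change of −1.36 ± 0.534 (adjusted p = 0.364 in edgeR's test). Between the exposures it was TTCAacgctgtcggtgag under mir-181a-2, at 104, 96 and 53 counts after L-Tyr and 23, 49 and 8 after 5-Brd-2′-dU, with −2.24 ± 0.926 (adjusted p = 0.593 in edgeR's test). For L-Tyr it was ATTCAacgctgtcggtgagt under mir-181a-2, at 183, 396 and 269 counts in control cells and 213, 413 and 328 after L-Tyr, with 0.60 ± 0.294 (adjusted p = 0.586 in edgeR's test). Each of these is 1 of many fragments of miR-181a-5p, whose sum is given above.

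Over the 9 libraries, the names whose log2 CPM varied most like that of miR-181a-5p were miR-103-3p, miR-10b-5p and miR-378a-3p. The root mean square difference of the centred log2 CPM was 0.176, 0.212 and 0.218, against a median of 0.690 over the 156 other sums with a mean count of at least 50. miR-181a-5p itself varied by an SD of 0.298 on the log2 scale. miR-103-3p was at 10214 to 15523 CPM in control cells, 13774 to 14423 after L-Tyr and 8674 to 11309 after 5-Brd-2′-dU.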

How the data were processed

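Small RNA of 9 cultures was enriched, sequenced in single reads and processed by the authors with the BaseSpace Small RNA app 1.0. The study states that readings 17 to 35 nt long were aligned to mm9 and miRBase 21 and named only at 100% identity. The family's tags nevertheless go down to 13 nt, and 101 of the 123 checked occur exactly in their hairpin, with 98.6% of the counts. Shorter and inexact tags were kept in the sums. Raw counts per tag and library were deposited by the authors and are the only values used. Their normalized counts and DESeq2 comparison tables were not used.

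Counts were summed by name and arm, by hairpin and arm, or kept per tag. On each of these, edgeR 4.0.16 (R 4.3.3, limma 3.58.1) was fitted to the whole table, on the 6 libraries of each comparison, with TMM factors, filterByExpr, the quasi-likelihood F test and Benjamini-Hochberg adjustment over all sums tested. The threshold was an adjusted p under 0.05, and the SE is the size of the log2 fold change divided by the square root of F. The script was tested on simulated data. Single levels and shares were compared by exact permutation tests (scipy 1.17.1), and shares have 95% Wilson intervals. Alternatives included DESeq2 1.42.0, other scalings and filters, ways of summing, and leaving out each library. A change of sign was counted as a reversal unless both fold changes were within 1 SE of 0. Tags were matched to RefSeq hairpins. Hairpin positions and host genes were taken from the GENCODE annotation of NCBIM37, and the sequence there was identical to the RefSeq hairpin for all but mir-181c. RefSeq as used held no hairpin of mir-181c, whose mature sequences were both found at its position.

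The members, lists and tests were chosen with earlier results of these data known. Named are every arm and hairpin copy, the most abundant tag of each arm (with 4 more of miR-181a-5p, chosen after their values were seen), the tag with the smallest p in each comparison, and the 3 names most like miR-181a-5p. Totals ran from 144452 to 424122 counts per library, and intervals and limits cover counting error only.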

Additional observations from a re-analysis of the deposited data

How the results depend on the processing

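The number of miR-181 arms called stayed at 0 in all 3 comparisons under other scalings, filters, ways of summing, a fit of all 9 libraries and each left-out library (from 0 to 0), with 1 exception. For L-Tyr relative to control cells, DESeq2's Wald test called 1 arm, miR-181b-3p, at an adjusted p of 0.0130. Over the 15 of 17 alternatives that tested miR-181b-3p, its adjusted p in edgeR's or DESeq2's test ran from 0.0130 to 0.605. Its log2 fold change ran from −8.79 to −4.40. With a mean count of at least 50, or with the most abundant tag, miR-181b-3p was not tested for L-Tyr, so the 0 there says nothing about it. Correlations of deviations between same-numbered libraries lay between −0.092 and 0.021. They cannot decide whether same-numbered cultures were handled together, since differently numbered libraries were not compared. With the replicate number as a block, 0 arms were called and the change of miR-181b-3p with L-Tyr was −5.87.

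When the most abundant tag stood for its arm, miR-181a-3p with L-Tyr turned to −0.61, miR-181b-5p with L-Tyr to 0.49 and miR-181a-5p with 5-Brd-2′-dU to 0.36. Without replicate 1 of L-Tyr, miR-181a-3p turned to −0.39 and miR-181a-1-3p to −0.63, the lowest with a library left out, where the highest were 0.51 and 0.45. The causes were not tested. By arm, 179 of 184 fold changes under the alternatives kept direction and side of the threshold or differed in sign within 1 SE only, and by hairpin copy 275 of 277. When only the larger entry of each sequence was kept, the difference in the 3p share of miR-181b with L-Tyr went from −11.6 to −18.1 percentage points. This setting dropped 5p counts listed under the other copy and no 3p counts, which by itself raises a 3p share. In replicate 1 of control cells the share went from 65 of 354 counts to 65 of 229.

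Scaling by total count moved the median log2 fold change of all sums from −0.20 to 0.07 for L-Tyr, from 0.02 to −0.09 for 5-Brd-2′-dU and from 0.12 to −0.09 between the exposures, and the sums called higher and lower from 4 and 2 to 7 and 1 for L-Tyr and from 11 and 1 to 2 and 1 for 5-Brd-2′-dU. Depth limits miR-181b-3p, miR-181c and miR-181d, and 3 libraries against 3 cannot give an exact p below 0.1.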
